A study of Mus musculus with 8 samples.

Results

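The comparison set BV2 cells at 9 h against BV2 cells at 6 h, over both treatments of the study. BV2 is an immortalized mouse microglial line, here of wild-type genotype per the labels, that had been through oxygen-glucose deprivation and reoxygenation, a culture model of ischemia. The members are the libraries whose titles name one of the 2 times, and all 8 of the 8 libraries in the series do. At 6 h there were 2 libraries, a control and one with the peptide 10panx1, which blocks pannexin 1 (Panx1) membrane channels. At 9 h there were 6 libraries, 3 controls and 3 with 10panx1. All groups had been deprived of oxygen and glucose, so no unstressed culture enters the comparison. The 10panx1 library at 6 h was grouped by its title, since its treatment label does not name the peptide. The labels describe 9 h of deprivation followed by recovery and do not say from when the 6 h and 9 h in the titles count. They name no batch and no separate cultures, so time and batch cannot be told apart, and the p-values rest on a spread among libraries that may be technical only. In bulk RNA, fewer cells of a type and less RNA per cell cannot be told apart.

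Loss of oxygen stabilises hypoxia-inducible factors (HIF), which switch on glucose uptake and glycolysis, while loss of nutrients activates stress programmes that restrain protein synthesis and growth. Return of oxygen brings oxidative stress, to which cells respond through the transcription factor NRF2. Microglia answer injury with waves of transcription in which immediate early transcription factors come first and cytokines, chemokines and feedback inhibitors follow.

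Libraries held from 18056693 to 23164860 counts, so that 3 counts amounted to between 0.13 and 0.166 CPM (counts scaled to library size). Library measures moved with time. Mitochondrial transcripts took 1.43% and 1.51% of counts at 6 h and 1.14% to 1.28% at 9 h, and the 100 genes highest in TPM (counts scaled for transcript length and library size) took 25.2% and 25.4% at 6 h and 27.1% to 27.9% at 9 h. Control replicate 3 at 9 h stood apart, with 82 genes of at least 20 counts that exceeded 10 times their count in any other library. Of 17 microglia and macrophage markers 11 were over 1 CPM in every library, among them Csf1r, Cd68 and Spi1, and they summed to 2677 and 2688 CPM at 6 h and 2341 to 2470 CPM at 9 h, with 3 called higher and 5 called lower. P2ry12, Sall1, Fcrls and C1qa, which mark microglia in the brain, stayed under 2 CPM in all libraries. Markers of astrocytes, neurons, lymphocytes and erythroid cells summed to at most 4.22 CPM, and Aqp4, a marker of astrocytes, was at 0 throughout. Oligodendrocyte markers summed to 45.4 and 45.9 CPM at 6 h and 27.9 to 35.3 CPM at 9 h, mostly Cnp, which was called lower, with Mog, Mobp and Olig2 at 0. The 8 endothelial markers summed to 193 and 221 CPM at 6 h and 252 to 292 CPM at 9 h, nearly all of it Flt1 and Vwf, with 5 called higher and Emcn at 0. Hepatocyte markers summed to 91 and 92.9 CPM at 6 h and 104 to 303 CPM at 9 h, with 2 called higher. Nearly all of this was Trf, except in control replicate 3 at 9 h, where Hpx alone had 157 CPM. Fibroblast markers reached 41.7 CPM in that library. The part of these shifts in the results below was not tested.

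Most of the measured transcriptome differed between the times. Of 14315 tested genes 9037 (63.1%) were called by edgeR's quasi-likelihood test at an adjusted p under 0.05, 4528 higher (31.6%) and 4509 lower (31.5%) at 9 h. Most changes were small, with a median of 1.517-fold among genes that rose and 1.468-fold among genes that fell. A change of at least 2-fold was reached by 1497 genes that rose (10.5%) and 1141 that fell (7.97%), and one of at least 8-fold by 472 and 52. Of the changes of at least 2-fold, 752 rises and 559 falls were in genes with a mean of 0.174 to 1.38 CPM. Genes this low could pass the filter on low counts through the libraries of a single time. Called risers with at most 3 counts in each 6 h library numbered 475, and called fallers with at most 3 in each 9 h library 24. How far the filter sets the excess of large rises was not tested. Both 6 h libraries lay outside the range of all 6 libraries at 9 h for 8783 genes (61.4%), with 4352 higher (30.4%) and 4431 lower (31%) at 9 h, and 8198 of them were also called. Any list of genes is to be read against these shares. On the deposited TPM values, taken for genes with a mean of at least 1 TPM, the median gene shifted by -0.11 on the log2(TPM + 1) scale. The split there was 3062 higher and 5073 lower, so the near balance of rises and falls depends on the scaling or the genes taken.

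**Figure D1:**
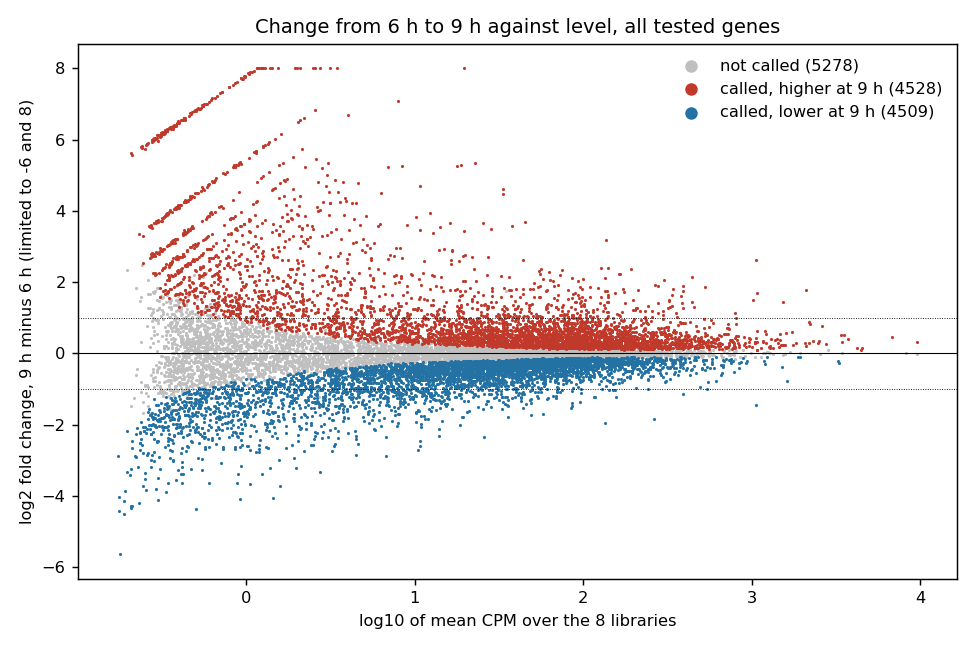
Each point is 1 of the 14315 tested genes, with the log10 of its mean CPM over 8 libraries on the x axis and its log2 fold change (9 h minus 6 h, limited to -6 and 8) on the y axis, red where called higher (4528), blue where called lower (4509) and grey where not called. Dotted lines mark a 2-fold change. The largest rises lie among genes of low level, where slanted lines of points are genes with 0 or a few counts at 6 h, whose fitted fold change depends on the prior count.

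The time change was also fitted in each treatment alone. Each of these fits set a single 6 h library against those at 9 h, so its spread came from the 9 h libraries only. A call there shows that a single 6 h library differed. In control libraries alone 7504 genes were called (52.4%), 3885 higher (27.1%) and 3619 lower (25.3%). In 10panx1 libraries alone 6676 were called (46.6%), 3415 higher (23.9%) and 3261 lower (22.8%). Both fits called 5635 genes, 5631 of them in the same direction. Over all tested genes the signs matched for 86.25%, and among the 5770 genes called in neither treatment for 69.88%. The fold changes had a Pearson r of 0.8432 across genes, which are not independent replicates. Of the 2638 genes called over both treatments with at least a 2-fold change, 2599 reached 1.5-fold in each treatment. They were selected on these same libraries, so this agreement is largely set by the selection and adds no support. A test of whether the time change differed between treatments called 0 genes with edgeR, with 865 at an unadjusted p under 0.05, and 0 with DESeq2, with 474. The 5 lowest p-values belonged to Ifrd1, Pik3r1, Gm6741, Gm47283 and Klf10, with adjusted p-values of 0.338, 0.338, 0.338, 0.338 and 0.41. With 1 library per treatment at 6 h this test has little precision, and a p that misses the threshold does not show equal changes.

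**Figure D2:**
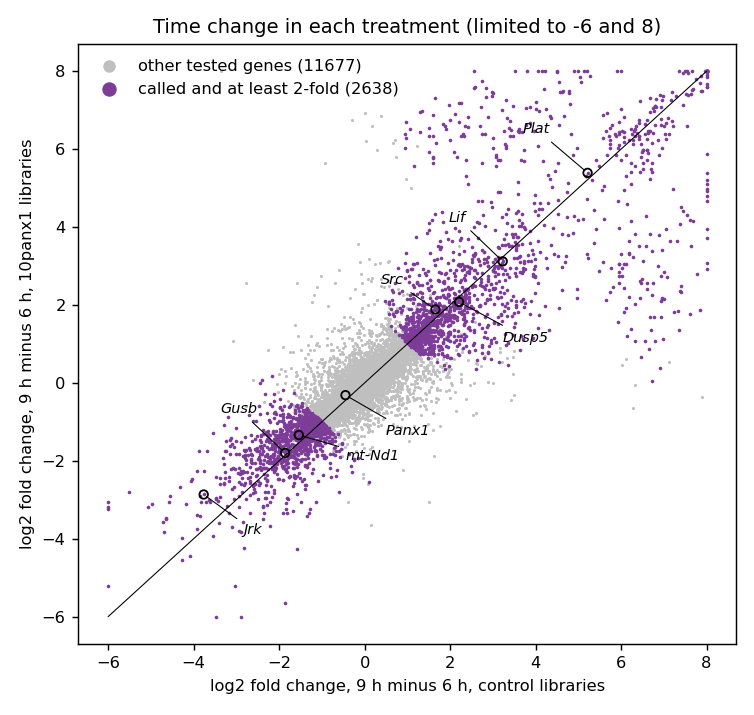
Each point is a tested gene, with its log2 fold change (9 h minus 6 h) in control libraries on the x axis and in 10panx1 libraries on the y axis, both limited to -6 and 8. Purple points are the 2638 genes called over both treatments with at least a 2-fold change, the line marks equal change, and circled genes are named. Of the purple points 2635 have the same sign on both axes, which their selection over both treatments favours.

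Src and Panx1, the genes the study turns on, both moved with time. Levels of named genes are TMM-scaled CPM, given at 6 h as control then 10panx1 and at 9 h as the lowest, median and highest of 6 libraries. Src, a non-receptor tyrosine kinase, lay at 19.8 and 23.4 CPM at 6 h and at 55.3, 72.1 and 94.2 CPM at 9 h. It was higher in every 9 h library than in either 6 h library, with a log2 fold change of 1.77 (SE 0.1, edgeR, adjusted p = 1.51e-10). Panx1 lay at 44.7 and 40.2 CPM at 6 h and at 27.9, 33.3 and 35.4 CPM at 9 h. It was lower in every 9 h library, with a log2 fold change of -0.39 (SE 0.085, edgeR, adjusted p = 0.000742). In 10panx1 libraries alone its log2 fold change was -0.32 and did not pass (edgeR, adjusted p = 0.0519).

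Among genes with at least 50 counts on average, the largest rises came from near silence. Il17f, a cytokine, had 0 counts in both libraries at 6 h and between 76 and 109 at 9 h. It was at least 63.25-fold higher when 6 h is set to 3 counts over both libraries together. Tmem132b was likewise at 0 and at least 58.39-fold higher, and Npc1l1, a sterol uptake transporter, at least 47.33-fold higher. Fhdc1, a formin-related protein that acts on microtubules and actin, had 2 and 1 counts at 6 h and 193 to 269 at 9 h, a ratio of 146.4 with a 95% counting interval from 49.99 to 710.8. Inhba, the activin A subunit, had 1 and 2 counts at 6 h and 49 to 87 at 9 h, a ratio of 47.33 (interval 16.09 to 230.4). Pax8, a transcription factor, had 0 and 1 counts at 6 h and 56 to 86 at 9 h. The naming rule took only genes without overlap between the times, and those at 0 counts at 6 h passed the filter on low counts through the 9 h libraries alone, so neither fact is a result. Hpx and Col1a1 also met the rule for the largest rises, but 2971 of the 2997 Hpx counts and 553 of the 618 Col1a1 counts at 9 h came from control replicate 3. Without that library they averaged 0.244 and 0.611 CPM at 9 h.

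The largest falls were in genes of low to moderate level. Jrk (in the deposited table ENSMUSG00000046380, chromosome 15, 74574150 to 74581384, minus strand), a nuclear nucleic acid-binding protein, lay at 10.1 and 6.76 CPM at 6 h and at 0.666, 0.771 and 1.11 CPM at 9 h, with a log2 fold change of -3.33 (SE 0.21, edgeR, adjusted p = 5.37e-10). Ankle1, an endonuclease, lay at 31.7 and 26.1 CPM at 6 h and at 2.9, 4.57 and 5.68 CPM at 9 h, with a log2 fold change of -2.72. Rgs11, a regulator of G protein signalling, lay at 28.9 and 28.1 CPM at 6 h and at 3, 5.01 and 7.03 CPM at 9 h, with a log2 fold change of -2.59. That these genes do not overlap between the times was again set by the naming rule. Bbs12, a chaperonin-like protein of the primary cilium, Tmem102, Lurap1, Shld3, a subunit of the shieldin complex of DNA repair, and Chst14, a dermatan sulfotransferase, had log2 fold changes of -2.86, -2.75, -2.59, -2.55 and -2.54.

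By amount of transcript a different set stood out. Called genes that rose gained about 106400 TPM between the times and those that fell lost 87090 TPM, and 50% of the gain was held by 125 genes while 50% of the loss was spread over 354. Ier3, an early response gene that modulates survival, went from 1615 to 4102 TPM, Cxcl2, a neutrophil chemokine, from 294 to 1647 TPM, and Spp1 (osteopontin) from 2568 to 4206 TPM. Eef1a1, the translation elongation factor, went from 12330 to 14390 TPM and Pkm, pyruvate kinase, from 6018 to 7677 TPM. Ccl3, a chemokine, went from 1668 to 3061 TPM. These means give each treatment equal weight. In the other direction mt-Nd1 went from 5767 to 1978 TPM, Prdx1, a peroxidase of hydrogen peroxide, from 2837 to 1526 TPM, mt-Nd2 from 1990 to 984 TPM and Hmox1, heme oxygenase 1, from 1553 to 845 TPM. Tuba1c, an alpha-tubulin, went from 925 to 386 TPM and Ptma (prothymosin alpha) from 2379 to 1837 TPM. Eef1a1, Ptma and Tuba1c have near-identical copies elsewhere in the genome, and it is not stated how reads shared by copies were counted, so their values are uncertain.

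Signalling genes of the early response were mostly higher at 9 h. Of 26 tested immediate early transcription factors 20 rose and 2 fell, with a median log2 fold change of 0.97 against 0.00 over all tested genes. Fosl2, an AP-1 subunit, lay at 86.3 and 95.4 CPM at 6 h and at 282, 336 and 391 CPM at 9 h, with a log2 fold change of 1.90 (SE 0.069, edgeR, adjusted p = 6.3e-13). Csrnp1, a nuclear protein induced by many stimuli, rose by 1.79 on the log2 scale, while Ier5l had a log2 fold change of -1.28. Among ERK feedback phosphatases and Sprouty proteins, which damp signalling by the kinase ERK, 14 of 16 rose and only Dusp7, with a log2 fold change of -0.35 (SE 0.079, edgeR, adjusted p = 0.000929), fell. Of 18 growth factors and EGF family ligands 11 rose and 3 fell, median 0.99. Hbegf, a ligand of the EGF receptor, lay at 41.1 and 47.4 CPM at 6 h and at 182, 205 and 233 CPM at 9 h, with a log2 fold change of 2.23 (SE 0.08, edgeR, adjusted p = 6.26e-13), and Tgfb1 had a log2 fold change of -0.49. No Hbegf value at 6 h came near those at 9 h. Among Notch, Wnt and TGF-beta genes 17 of 32 rose and 7 fell, led by Smad7, an inhibitor of TGF-beta signalling, at 1.58, with Smad5 at 0.83 and Ctnnb1 (beta-catenin) at -0.33.

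Inflammatory genes split by role. Of 17 cytokines 13 rose and 2 fell and of 15 chemokines 12 rose and 2 fell, each with a median of 0.82. Il1rn, the antagonist of the interleukin 1 receptor, lay at 352 and 521 CPM at 6 h and at 871, 1155 and 1604 CPM at 9 h, with a log2 fold change of 1.48 (SE 0.093, edgeR, adjusted p = 5.28e-10). Tnf went the other way, at 279 and 336 CPM at 6 h and at 207, 242 and 269 CPM at 9 h, with a log2 fold change of -0.35 (SE 0.044, edgeR, adjusted p = 2.48e-06), as did the monocyte chemokine Ccl2 at -0.61. Cxcl10, an interferon-inducible chemokine, rose by 1.83. By contrast, of 22 Toll-like receptors and adaptors 13 fell and 5 rose, median -0.27. Cd180, a Toll-like receptor homologue, lay at 158 and 173 CPM at 6 h and at 51.6, 58.1 and 62.1 CPM at 9 h, with a log2 fold change of -1.52 (SE 0.057, edgeR, adjusted p = 9.65e-13). Its levels at 9 h were all far under both at 6 h, whereas Irak2, a kinase downstream of these receptors, rose by 0.67. NF-kB subunits and feedback genes were mixed, 13 up and 8 down of 23, with the IkB-like regulators Nfkbiz at 1.03 and Nfkbid at -1.62 in opposite directions and Traf1, an adaptor of TNF receptors, at 1.43. Interferon-stimulated genes had 8 up and 5 down of 30, beside the 63.1% of all genes that were called. Rsad2 (viperin) and Oasl1 rose by 1.37 and 0.80, and Parp14 had a log2 fold change of -0.60.

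Eicosanoid synthesis had 5 up and 1 down of 13. Ptger4, a receptor of prostaglandin E2, rose by 1.81 on the log2 scale and Ptgs2, the inducible cyclooxygenase, by 1.79, while Pla2g4a, the phospholipase that frees arachidonic acid, had a log2 fold change of -0.74. Inflammasome and purinergic genes went both ways, 6 up and 7 down of 19, an order that turned against a 1.5-fold limit and without a filter on low counts. Adora2a, a receptor of adenosine, lay at 0.701 and 0.213 CPM at 6 h and at 4.51, 5.11 and 6.47 CPM at 9 h, with a log2 fold change of 3.48 (SE 0.29, edgeR, adjusted p = 1.74e-08), while Casp1, the inflammasome protease, had a log2 fold change of -0.64. MHC class I presentation had 5 up and 5 down of 18. H2-Q4 and H2-K1 rose by 0.92 and 0.47, and Psmb10, an immunoproteasome subunit, had -0.66. Class I genes are near-identical copies, so their values are uncertain.

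Glucose handling and hypoxia genes were higher more often than lower. Of 29 HIF targets 18 rose and 6 fell (median 0.30), and of 23 glycolysis genes 14 rose and 3 fell (median 0.28). Pfkfb3, which makes the activator of phosphofructokinase, lay at 39.2 and 38.9 CPM at 6 h and at 162, 166 and 176 CPM at 9 h, with a log2 fold change of 2.10 (SE 0.055, edgeR, adjusted p = 1.95e-14). Slc2a3, a glucose transporter, lay at 157 and 194 CPM at 6 h and at 526, 628 and 783 CPM at 9 h, with a log2 fold change of 1.87 (SE 0.062, edgeR, adjusted p = 3.31e-13). In both genes the 9 h libraries all stood well above 6 h. Pdk1, a kinase that inhibits pyruvate dehydrogenase, and Slc16a1, a lactate transporter, had log2 fold changes of -0.51 and -0.63. TCA cycle genes moved little, 9 up and 5 down of 28, a majority that turned on TPM values, in control libraries alone and without the 10panx1 library at 6 h. Pcx, Idh1 and Dlst had log2 fold changes of -0.34, -0.48 and 0.20. Nuclear-encoded respiratory chain genes had 17 up and 1 down of 38, with a median of 0.13, though lower calls outnumbered higher ones on TPM. Ndufa1 and Cox7c rose by 0.64 and 0.42, and Atp5a1 had -0.12.

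Transcripts of the mitochondrial genome did not move together. Of 10 tested members of the list 6 fell and 2 rose. The complex I subunit mt-Nd1 lay at 1984 and 2062 CPM at 6 h and at 656, 707 and 869 CPM at 9 h, with a log2 fold change of -1.45 (SE 0.058, edgeR, adjusted p = 2.28e-12), and mt-Nd2 had a log2 fold change of -0.93. In contrast mt-Cytb, of complex III, lay at 1203 and 1208 CPM at 6 h and at 1370, 1597 and 1673 CPM at 9 h, with a log2 fold change of 0.37 (SE 0.065, edgeR, adjusted p = 9.19e-05). The cytochrome oxidase transcript mt-Co1 had a log2 fold change of 0.00 and was not called, and mt-Nd4 and mt-Nd5 had -0.58 and -0.32. Every 9 h library was lower than both 6 h libraries for mt-Nd1 and higher for mt-Cytb. Levels differed widely, with mt-Co1 at 7567 to 8683 CPM at 9 h and mt-Co2, mt-Co3 and mt-Atp6 at most at 39.55, 14.47 and 5.996 CPM. How reads shared by genes or copies were counted is not stated, so single values are uncertain. Whether the differing directions come from such counting was not tested.

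Cytosolic ribosomal protein genes of the list rose together, each by less than 2-fold, while other genes of translation were mixed. Over the wider Rpl stem 45 of 48 genes rose and 1 fell, with log2 fold changes from -1.06 to 1.10. All 38 tested cytosolic ribosomal protein genes of the list rose, by 0.17 to 0.98 on the log2 scale with a median of 0.41. Rpl3 lay at 892 and 929 CPM at 6 h and at 1291, 1325 and 1383 CPM at 9 h, with a log2 fold change of 0.54 (SE 0.043, edgeR, adjusted p = 1.14e-08), and Rpl30 rose by 0.74. These genes have near-identical pseudogene copies, so single values are uncertain. Of 20 aminoacyl-tRNA synthetases 11 rose and 2 fell, with Sars and Nars at 0.60 and 0.49 and Vars at -0.22. By symbol, Eif initiation factors had 26 up and 13 down of 52, Eef elongation factors 4 up and 6 down of 13, and the mitochondrial ribosomal proteins Mrpl and Mrps 7 up and 20 down of 48 and 3 up and 9 down of 29. Ribosome biogenesis genes had 14 up and 10 down of 36, an order that turned on TPM values, with upper quartile scaling and against a 1.5-fold limit. Nop14 rose by 0.50, while Dkc1, a pseudouridine synthase, and Rrs1 had -0.72 and -0.62. ATF4 and amino acid stress genes had 14 up and 7 down of 28. Ppp1r15a (GADD34), which restores translation by directing a phosphatase to eIF2, lay at 47.9 and 47.3 CPM at 6 h and at 93.98, 98.2 and 111 CPM at 9 h, with a log2 fold change of 1.07 (SE 0.066, edgeR, adjusted p = 4.56e-10), and Trib3 rose by 0.67, while Slc7a11, the cystine transporter, had -0.61.

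Antioxidant and iron genes were lower more often than higher. Of 27 NRF2 and glutathione genes 17 fell and 3 rose, median -0.33. Txnrd1, thioredoxin reductase, lay at 812 and 806 CPM at 6 h and at 410.3, 482 and 523 CPM at 9 h, with a log2 fold change of -0.79 (SE 0.056, edgeR, adjusted p = 2.64e-09). Hmox1 lay at 852 and 934 CPM at 6 h and at 482, 518 and 569 CPM at 9 h, with a log2 fold change of -0.78 (SE 0.039, edgeR, adjusted p = 4.46e-11). Both were lower in all 9 h libraries than in either at 6 h. Gpx1 rose by 0.96 at under 10 CPM, with overlapping groups, and did not pass in 10panx1 libraries alone (edgeR, adjusted p = 0.0607). Of 25 iron and heme genes 14 fell and 6 rose, with Blvrb at -0.51 and Pcbp2, an iron chaperone, at 0.32. The unfolded protein response had 13 down and 5 up of 26, an order that turned against a 1.5-fold limit. Atf6, one of its sensors, rose by 0.75 and Dnajc3, a cochaperone, had -0.72. Heat shock genes went 7 up and 7 down of 21. Hspa4l and the cochaperone Bag3 had log2 fold changes of 1.20 and -0.63, and Hspb1 went from 1 and 0 counts at 6 h to between 46 and 77 at 9 h, a ratio of 120.4 (interval 21.48 to 4769).

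Most called lysosome genes fell and most called autophagy genes rose. Of 34 lysosome genes 21 fell and 5 rose, median -0.13. Gusb (in the deposited table ENSMUSG00000025534, chromosome 5, 130017852 to 130031890, minus strand), the lysosomal beta-glucuronidase, lay at 576 and 570.1 CPM at 6 h and at 152, 159.7 and 174 CPM at 9 h, with a log2 fold change of -1.83 (SE 0.046, edgeR, adjusted p = 1.95e-14). Lipa, the lysosomal acid lipase, lay at 222 and 204 CPM at 6 h and at 95.8, 124 and 134 CPM at 9 h, with a log2 fold change of -0.82 (SE 0.064, edgeR, adjusted p = 8.25e-09). Neither gene overlapped between the times, and Glb1 (beta-galactosidase) rose by 0.74. Autophagy genes went the other way, 12 up and 4 down of 27, with the initiation factors Atg14 and Rb1cc1 at 1.26 and 0.65 and the kinase Ulk2 at -0.72. Cholesterol genes had 10 up and 2 down of 24, with Msmo1 at 0.74 and Ebp at -0.49. Fatty acid and LXR genes had 9 up and 8 down of 27, which turned on TPM values, in 10panx1 libraries alone and without the control library at 6 h. Abca1, which exports cholesterol, rose by 1.29, and Elovl1, a fatty acid elongase, had -1.19. Proteasome genes had 11 up and 10 down of 37 with an order that turned in 10 of 21 alternatives, Psmb7 at 0.39 and Psme3 at -0.43.

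Genes of the cell cycle, genome maintenance and cell death were lower more often. Of 41 G1/S and replication genes 17 fell and 8 rose, of 40 G2/M genes 18 fell and 8 rose, and of 36 DNA repair genes 20 fell and 6 rose. Ccnd3 (cyclin D3), from a list of cyclins, CDK inhibitors and RB genes with 13 down and 5 up of 23, lay at 254 and 233 CPM at 6 h and at 131, 136 and 144 CPM at 9 h, with a log2 fold change of -0.83 (SE 0.048, edgeR, adjusted p = 2.22e-10). Ccne2 (cyclin E2), Plk1 and Aurkb, kinases of mitosis, had log2 fold changes of -0.93, -0.73 and -0.54, and Prim2, Bub1 and Mxd1, an antagonist of Myc, rose by 0.66, 0.41 and 1.32. The repair genes Pms2 and Xrcc2 had -1.19 and -1.28, and Msh6 rose by 0.28. Of 7 tested replication-dependent histone genes 3 rose and 1 fell, with H2bc4 at 0.80, H4c4 at 2.06 and H1f2 at -0.40. Their transcripts mostly lack a poly(A) tail, which the library preparation selects.

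The p53 targets had 11 up and 8 down of 24. Plk2, a kinase of the polo family, lay at 354 and 448 CPM at 6 h and at 1181, 1309 and 1394 CPM at 9 h, with a log2 fold change of 1.70 (SE 0.05, edgeR, adjusted p = 8.46e-14). Gadd45a, a growth arrest gene, rose by 2.77 and Trp53 itself had -0.43. Of 26 BCL2 family and caspase genes 12 fell and 4 rose, median -0.22. Bcl2l11 (BIM), a BH3-only promoter of cell death, lay at 204 and 183 CPM at 6 h and at 499, 525 and 548 CPM at 9 h, with a log2 fold change of 1.44 (SE 0.054, edgeR, adjusted p = 1.12e-12). Cflar (c-FLIP), an inhibitor of caspase 8, rose by 0.94, while Casp9, the initiator caspase of the mitochondrial pathway, had -1.22.

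Microglial state, adhesion and matrix genes followed. Disease-associated microglia genes had 11 down and 5 up of 23, an order that turned against a 1.5-fold limit, with Lilrb4a at 1.27 and Cd68 at -0.38. Homeostatic genes had 6 up and 4 down of 14, which turned on TPM values. Mertk, a phagocytic receptor, rose by 1.86, and Trem2 had -0.52. Of 28 actin and adhesion genes 16 rose and 3 fell, with Lima1 and Vcl (vinculin) at 1.15 and 0.98 and Tpm3 at -0.28. Of 17 integrins 11 rose and 3 fell, with Itga6 at 0.85 and Itga4 at -1.31. Src family kinases and regulators had 16 up and 2 down of 26, median 0.41. Nedd9, a scaffold phosphorylated by Src, lay at 40.5 and 43.7 CPM at 6 h and at 139.8, 150.2 and 156 CPM at 9 h, with a log2 fold change of 1.83 (SE 0.063, edgeR, adjusted p = 4.06e-13). Cblb, a ubiquitin ligase, rose by 1.63, while the phosphatase Ptpn6 had -0.46.

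Matrix proteases and plasminogen activators had 11 up and 5 down of 20. Plat (in the deposited table ENSMUSG00000031538, chromosome 8, 23247743 to 23272860, plus strand), tissue plasminogen activator, lay at 0.789 and 0.479 CPM at 6 h and at 18.6, 23.3 and 32.9 CPM at 9 h, with a log2 fold change of 5.28 (SE 0.19, edgeR, adjusted p = 6.3e-13). It was higher in every 9 h library than in either at 6 h, while Adamts1 had -0.84.

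RNA and chromatin regulators were mixed. Splicing kinases and SR proteins had 19 up and 6 down of 32, with Clk4, a kinase of SR proteins, at 1.31, Rbm39 at 1.27 and Srsf9 at -1.07. mRNA decay and microRNA genes had 15 up and 15 down of 36. Dicer1, which cuts microRNA precursors, lay at 119 and 121 CPM at 6 h and at 52.5, 57.4 and 60.6 CPM at 9 h, with a log2 fold change of -1.07 (SE 0.057, edgeR, adjusted p = 7.15e-11), while Btg1 rose by 1.33. Histone demethylases, deacetylases and methyltransferases had 19 up and 10 down of 40, with Tet2 (a DNA demethylating enzyme) and Kdm3a at 1.04 and 0.74 and Setd1b at -1.26. Nuclear pore and importin genes had 14 in each direction of 36. Kpna2 lay at 275 and 273 CPM at 6 h and at 107, 115 and 132 CPM at 9 h, with a log2 fold change of -1.23 (SE 0.063, edgeR, adjusted p = 4.61e-11), and Ipo11 and Kpna4 had -0.77 and 0.72. Clock genes had 9 up and 7 down of 18, which turned on TPM values, in 10panx1 libraries alone and without the control library at 6 h. Rora and Bhlhe40 rose by 1.86 and 0.94, and Nr1d1 (REV-ERB alpha), a repressor in the clock, had -1.14.

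**Figure D3:**
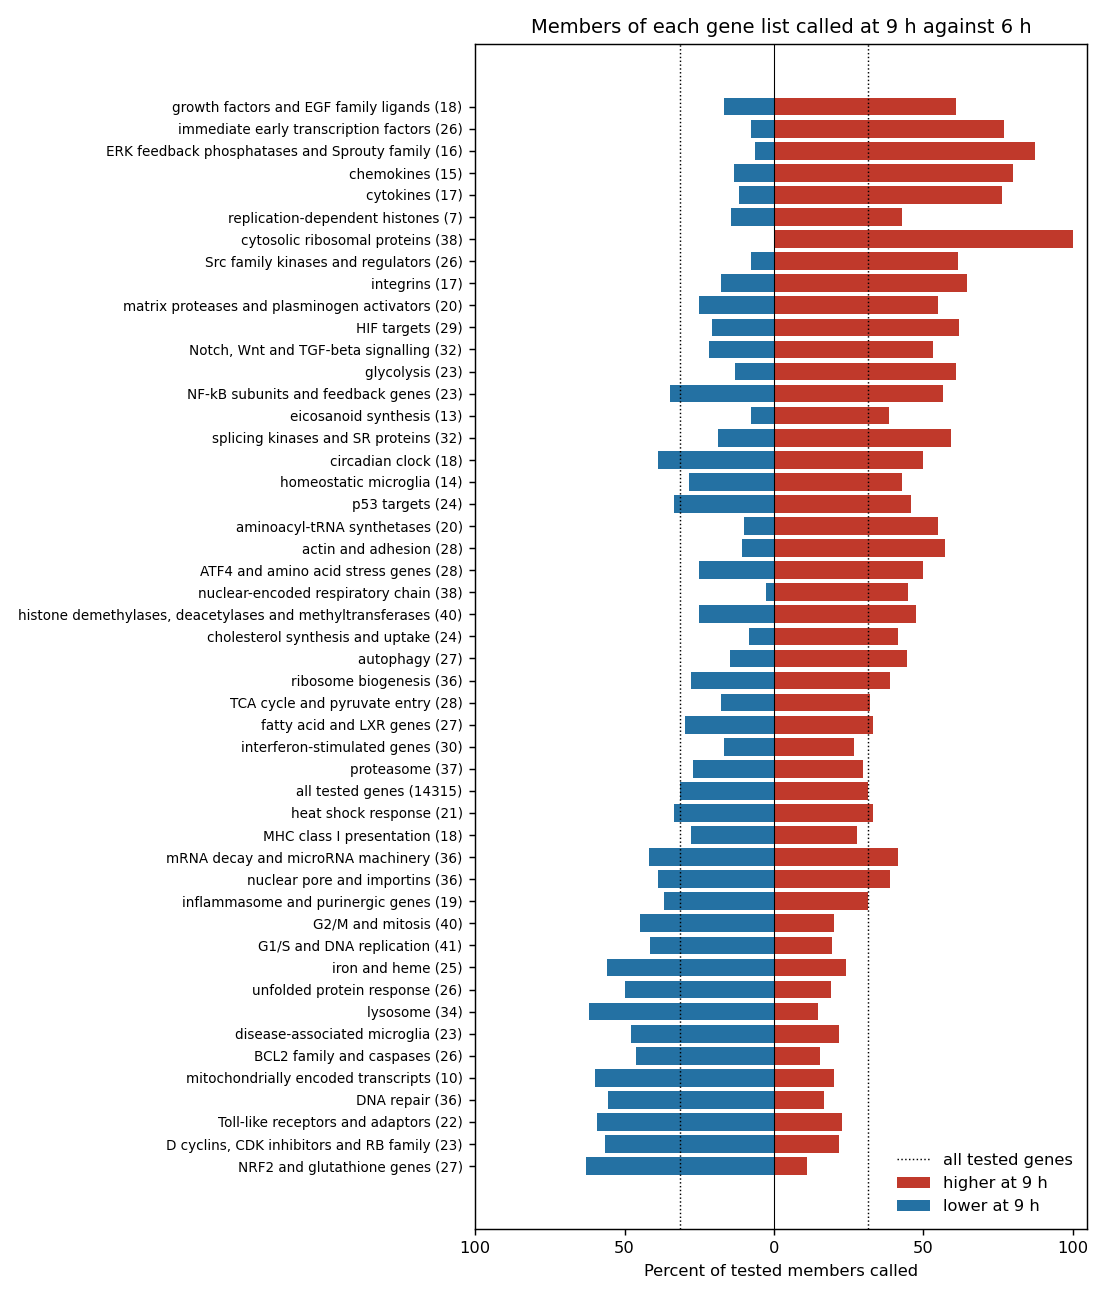
For each of 48 gene lists and for all tested genes (y axis, tested members in brackets, ordered by median log2 fold change), the bars give the percent of tested members called higher (red, right) and lower (blue, left) at 9 h. Dotted lines mark the 31.6% and 31.5% of all tested genes. Ribosomal proteins reach 100% higher, and NRF2 and lysosome genes exceed 60% lower.

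Outside these lists, genes were grouped by the letters that open their symbol, which gave 152 stems with at least 10 tested members, covering 3818 genes. Rising shares were highest for Rpl (45 of 48), Ccl (9 of 11), Rps (35 of 44, S6 kinases included), Mtmr (7 of 10), Serpinb (7 of 10) and Ptpn (9 of 13). Mtmr genes encode myotubularin phosphoinositide phosphatases, and Mtmr3 and Mtmr7 rose by 0.86 and 1.36. Among tyrosine phosphatases Ptpn14 and Ptpn2 rose by 1.58 and 1.08, and Serpinb2, an inhibitor of plasminogen activators, lay at 0.876 and 1.17 CPM at 6 h and at 8.66, 15.6 and 25.7 CPM at 9 h, with a log2 fold change of 3.93 (SE 0.25, edgeR, adjusted p = 6.34e-10). Serpinb6b, Ccl9, Rps28 and Rps6ka2 rose by 1.21, 0.67, 0.79 and 1.48.

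Falling shares were highest for Alg (9 of 12), Cyb (7 of 11), Prr (7 of 11), Naa (8 of 13), Nudt (11 of 18) and Zdhhc (11 of 18). Alg genes build the sugar chain of N-linked glycoproteins, and Alg3 lay at 28.96 and 29.8 CPM at 6 h and at 14.7, 15.9 and 17.8 CPM at 9 h, with a log2 fold change of -0.86 (SE 0.088, edgeR, adjusted p = 2.33e-07), and Alg11 had -0.71. Zdhhc genes attach palmitate to proteins. Zdhhc12 lay at 62.00 and 61.2 CPM at 6 h and at 23.7, 26.3 and 28.1 CPM at 9 h, with a log2 fold change of -1.22 (SE 0.071, edgeR, adjusted p = 2.17e-10), and Zdhhc24 had -1.23. Naa genes belong to N-terminal acetyltransferases and Nudt genes to nucleotide hydrolases, with Naa50 and Naa12 at -0.51 and -0.50 and Nudt7 and Nudt16l1 at -0.98 and -0.77. Prr12, Prr14, Cyb5d1 and Cyb5a had -1.03, -0.95, -0.85 and -0.66.

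By the pathway names in the deposited annotation, held by 5243 tested genes, single pathways differed in direction. Those given here were chosen after their values were seen. N-glycan biosynthesis had 29 down and 7 up of 46, GPI-anchor biosynthesis 15 and 1 of 25, porphyrin metabolism 15 and 3 of 23, the Fanconi anemia pathway 25 and 6 of 51 and base excision repair 22 and 6 of 45. Repair pathways were not alike, since nucleotide excision repair had 15 down and 17 up of 57. Upward, ECM-receptor interaction had 26 up and 7 down of 50, the IL-17 pathway 39 and 11 of 68 and focal adhesion 72 and 32 of 149.

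Gene type and gene size also differed between risers and fallers. Of 1077 tested long noncoding RNAs 435 fell and 224 rose, against 3762 and 3910 of 11726 protein-coding genes. Noncoding genes are mostly of low level. In the band from 1.38 to 10.1 CPM, 49.1% of 338 long noncoding RNAs fell and 22.2% rose, against 36.4% and 25.1% of 2055 protein-coding genes. Under 1.38 CPM 35.8% of 681 long noncoding RNAs fell and 18.6% rose, against 13.1% and 35.6% of 1327 protein-coding genes. Genes this low could pass the filter on low counts through the libraries of a single time, so these shares are partly set by it. At higher levels no such excess was seen in the few noncoding genes, with 39.5% in each direction of 38 between 10.1 and 33.5 CPM and 46.2% in each direction of 13 between 33.5 and 86 CPM. Named after their values were seen, Brip1os, Oip5os1 and Neat1, a scaffold of nuclear paraspeckles, had log2 fold changes of -1.28, -1.25 and -0.81. Host genes of small nucleolar RNAs went the other way. Of 12 Snhg genes 8 rose and 2 fell. Snhg12 was at 6.18 and 4.68 CPM at 6 h and between 18.6 and 34.4 CPM at 9 h, a log2 fold change of 2.38, and Zfas1 and Snhg1 rose by 1.85 and 1.82.

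Tested genes were also split into 5 groups of equal size by genomic span, from the first to the last base of a gene in the deposited table. The longest group (about 57810 bases or more) had 51.8% higher and 16.9% lower, and group 2, from 4853 to about 13250 bases, had 22.1% higher and 41.8% lower. In control libraries alone the longest group had 46.9% higher and 12.3% lower. Among protein-coding genes with transcripts of 2000 to 4000 bases it had 45.4% higher and 15.7% lower, so the order was also present where mature transcripts were alike in length.

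**Figure D4:**
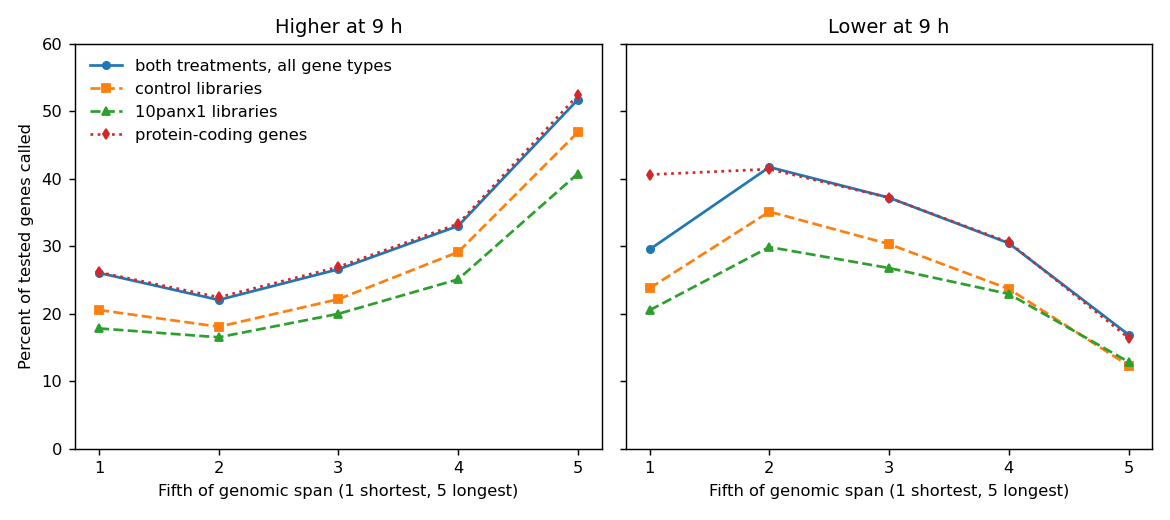
Percent of tested genes called higher (left) and lower (right) at 9 h (y axis) by group of genomic span (x axis, 1 shortest, 5 longest), for the fit over both treatments, each treatment alone and protein-coding genes. In each line the longest group has the highest share of rises and the lowest share of falls.

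Promoters of the large risers held some sequences more often than those of all tested genes, which were mostly of higher level. Median levels were 1.36 CPM in large risers, 1.44 CPM in large fallers and 19.98 CPM over all tested genes, with or without a promoter. Promoters were not compared at like level, so whether the shares go with level was not tested. RefSeq promoters (GRCm38.p6, 250 bases before to 50 after the start) were found for 9827 tested genes, 875 of them at least 2-fold higher and 558 at least 2-fold lower. The letters TATAAA, the core of a TATA box, stood on either strand of 12.9% of the promoters of large risers, 5.56% of those of large fallers and 7.09% of all. TGANTCA, the form bound by AP-1, stood in 9.49%, 4.12% and 5.28%. GGGCGG, a GC box, was rarer in both, at 49.8% and 57.9% against 63.2%. Other searches, on both strands in the same way, were for the CRE (the letters TGACGTCA) and a related site (the letters TGACGCAA), the E box (the letters CACGTG) and the HIF core that it contains (the letters ACGTG), the CCAAT box, the ETS core (the letters GGAA), the E2F element (the letters TTTCGCGC), the sequence TTTGAA, the ATF4 site (the letters TGATGCAAT), and by name the interferon element, the CArG box and the NF-kB site. These shorter motifs can overlap one another. The E box stood in 8.46%, 7.53% and 10.2%, and the NF-kB site in 11.1%, 9.50% and 9.96%. A match is a description of letters, not of binding.

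Of 45 named risers of at least 2-fold with a promoter, Rsad2 and Serpinb2 held both TATAAA and TGANTCA, and they are shown with Lif, a cytokine of the interleukin 6 family and a large riser that held TGANTCA. Capitals mark the matches, with TTTATA in Rsad2 being TATAAA on the other strand. The first matched letter stands at -87 and -10 from the start in Rsad2 (chr12:26456403-26456702, minus strand), at -94 and -29 in Serpinb2 (chr1:107511173-107511472, plus strand) and at -228 in Lif (chr11:4257318-4257617, plus strand).
Rsad2: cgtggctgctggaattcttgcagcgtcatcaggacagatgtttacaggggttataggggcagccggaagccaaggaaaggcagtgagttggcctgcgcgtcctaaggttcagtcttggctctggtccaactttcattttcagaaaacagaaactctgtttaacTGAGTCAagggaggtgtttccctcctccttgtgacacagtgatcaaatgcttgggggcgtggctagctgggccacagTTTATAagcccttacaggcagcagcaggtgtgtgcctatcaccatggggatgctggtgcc
Serpinb2: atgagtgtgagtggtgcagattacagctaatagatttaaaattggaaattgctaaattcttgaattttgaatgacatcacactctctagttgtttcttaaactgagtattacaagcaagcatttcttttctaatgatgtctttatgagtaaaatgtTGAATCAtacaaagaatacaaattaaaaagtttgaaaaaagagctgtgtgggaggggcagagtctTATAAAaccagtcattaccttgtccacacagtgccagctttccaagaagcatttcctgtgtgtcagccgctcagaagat
Lif: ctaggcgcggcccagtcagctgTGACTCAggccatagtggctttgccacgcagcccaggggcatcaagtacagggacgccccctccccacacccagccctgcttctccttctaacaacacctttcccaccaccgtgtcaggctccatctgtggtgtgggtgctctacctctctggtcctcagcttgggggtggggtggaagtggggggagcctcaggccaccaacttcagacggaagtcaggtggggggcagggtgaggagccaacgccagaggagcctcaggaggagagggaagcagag
Rsad2 lay at 11.04 and 12.8 CPM at 6 h and at 28.2, 29.8 and 34.9 CPM at 9 h, with a log2 fold change of 1.37 (SE 0.11, edgeR, adjusted p = 9.36e-09). Lif lay at 17.3 and 21.9 CPM at 6 h and at 148, 176 and 197 CPM at 9 h, with a log2 fold change of 3.17 (SE 0.076, edgeR, adjusted p = 1.85e-14). None of these genes overlapped between the times.

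A further set was near silent at one time. Of 499 tested genes with at most 3 counts in each 6 h library 475 were called higher at 9 h. They passed the filter on low counts through the 9 h libraries alone, so that they had to differ. Their median level at 9 h was 0.573 CPM, 34 reached 2 CPM, and 470 had a count in each 9 h library. They comprised 298 protein-coding genes, 72 long noncoding RNAs and 44 processed pseudogenes. In the opposite direction 24 genes with at most 3 counts in each 9 h library were called lower. These passed the filter through the 6 h libraries alone, so that they too had to differ. The limit of 3 counts had to hold in more libraries at 9 h than at 6 h, so the 475 and 24 are not on equal terms. Odorant receptor genes of the Or stem, best known from the nose, were picked after their values were seen. They had 10 up and 3 down of 17 tested, beside 31.6% and 31.5% of all tested genes. Most of these risers had 0 or a few counts at 6 h, so their rise too was largely set by the filter. Or9a7 and Or2y1f, for instance, were at 0 at 6 h and at 2.27 to 3.13 and 0.379 to 1.03 CPM at 9 h.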

How the data were processed

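Poly(A) RNA of BV2 cells was sequenced from directional libraries, per the labels' protocols. The authors deposited a table of unscaled whole-number counts for each gene and a table of TPM values. Per the submitters' processing notes, the software was FastQC, Trimmomatic, STAR, featureCounts and DESeq2, with no version or role stated. They also name GRCm38, but gene starts in the tables do not match it, so coordinates are printed as deposited, with no build. Strand setting and treatment of shared reads: not given in the sources used here. Of 57010 rows 151 repeats were dropped, leaving 56859 genes, and every row named a gene.

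The main test was edgeR 4.0.16 under R 4.3.3 on the counts of 8 libraries with treatment as a covariate, TMM scaling, filterByExpr on time and Benjamini-Hochberg adjustment at 0.05, and again in each treatment alone and for the interaction. Alternatives used limma 3.58.1 (voom, and log2 of TPM with 1 or 0.1 added), DESeq2 1.42.0, other scalings and filters, a replicate block and each library left out. The fits on TPM took only genes with a mean of at least 1 TPM. In simulated counts for 9 h against 6 h over 14315 genes 62% of 1.25-fold changes were recovered, as were 88% at 1.5-fold and 100% at 2-fold (50 genes each). Changes were planted only in genes with a mean of at least 50 counts, with most genes left unchanged. The rates therefore do not cover genes of lower level or data in which most genes change. Counting intervals are exact at 95% and, like limits from 3 counts, cover counting error only. Tables and plots used Python 3.11.15, pandas 2.3.3 and matplotlib 3.10.9.

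The comparison, the 48 gene lists (1350 entries, 1326 matched by symbol, 23 by Ensembl ID and 1 by none) and the other choices were made with earlier results of these data known. No set test was made. Named were Panx1 and Src; the 8 largest rises and falls by fold, and the 6 by TPM, among called genes with a mean of at least 50 counts, no overlap between times and a proper symbol; up to 2 members with the smallest p per list, and the best of the other direction; up to 2 per named symbol stem; and the 5 lowest interaction p-values. Some genes that met this rule are not reported here. Genes outside this rule are marked as chosen after their values were seen, or belong to the marker lists or the mitochondrial genome. RefSeq promoters were used at the first listed start of a gene.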

Additional observations from a re-analysis of the deposited data

How the results depend on the processing

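Called genes numbered between 6922 and 9098 without any 1 library, with the lowest count without the control library at 6 h, and genes called with at least a 2-fold change between 2144 and 2686. Within treatments these counts ran from 6147 to 8142 in control and from 6215 to 7039 in 10panx1 libraries. When control replicate 3 at 9 h was left out, 8811 genes were called and 2587 reached 2-fold. Tested against a 1.5-fold change rather than none, 2872 genes were called (1596 higher, 1276 lower). With limma on log2(TPM + 1) 1414 reached 2-fold (674 higher, 740 lower), and on log2(TPM + 0.1) 1878 did (881 higher, 997 lower). Both fits took only genes with a mean of at least 1 TPM, and the larger pseudocount shrinks the change of low genes more. On log2(TPM + 0.1) 3093 genes were higher and 5000 lower. The interaction called 34 genes (11 positive, 23 negative) without a filter on low counts, Ifrd1, Pik3r1, Gm6741, Gm47283 and Klf10 among them, and 0 to 2 without any 1 library at 9 h, with 2 only without 10panx1 replicate 2. The cause was not tested.

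Replicate numbers at 9 h did not pair the libraries, since the correlations of same-numbered deviations were 0.137, -0.00326 and 0.0894. With a replicate block within 9 h, 9178 genes were called and 2656 reached 2-fold. Of 176 named genes with a time change 169 kept their direction and call in each alternative over both treatments, other than the test against 1.5-fold and the removal of length and GC trends, where single genes were not followed. Hpx and Col1a1 lost the call with limma-voom, on TPM and without the control library at 6 h, Dlst on TPM, Ptma with DESeq2 and without the 10panx1 library at 6 h, Dusp7 without the latter, and Atp5a1 and H1f2 without the control library at 6 h. In single treatments, Panx1, Gpx1, H1f2, Atp5a1 and Gm47283 were not called in 10panx1 libraries alone, Dusp7 and Col1a1 not in control libraries alone, and Hpx in neither. Of 48 lists 10 changed the direction that more members took in some of 21 alternatives, as given beside them. On log2(TPM + 1) the medians of 9 lists changed sign, and 0 did relative to the median of all genes in the same fit. The single library per treatment at 6 h limits every estimate.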
